A study of Mus musculus with 2 samples.

Results

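Chemokines and chemokine receptors were followed in pancreatic islets of C57BL/6J mice 8 weeks of age. Islets of the first group were isolated 3 days after 60% of the pancreas had been removed (pancreatectomy), and those of the second 3 days after a sham operation. Each group was hybridised to 4 single-colour Agilent arrays, and the labels name no mutant, transgene or drug in either. The labels call the arrays replicates without saying whether different mice or islet isolations lie behind them, so the p-values rest on array-to-array spread that can be technical. Members were all genes whose symbol in the authors' deposited table is Ccl, Cxcl, Cx3cl, Xcl, Ccr, Cxcr, Cx3cr or Xcr followed by a number only. This rule found 53 of the 24288 gene symbols on the array, 34 ligands and 19 receptors. Of the 53, 37 had a probe that cleared background on 4 or more of the 8 arrays and were tested, 24 ligands and 13 receptors. The other 16 are given at the end of these results.

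Chemokines are small secreted proteins that direct the movement of leukocytes along concentration gradients. They are classed by the spacing of their first cysteines into CC (Ccl), CXC (Cxcl), CX3C (Cx3cl) and C (Xcl) ligands, and they act on G protein-coupled receptors of matching class. In islets they are made by beta cells under cytokine stress, by resident macrophages and by endothelial and stromal cells.

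Some arrays carried transcripts typical of tissues other than islets. The mean log2 signal of 11 liver genes was 12.51, 5.06, 6.66 and 11.59 on pancreatectomy arrays 1 to 4, against 4.41 to 12.41 on sham arrays, of which sham array 4 had 12.41 and sham arrays 1 to 3 at most 5.22. Pancreatectomy array 3 carried gut and B-cell transcripts, with means of 9.99 over 7 gut genes and 9.39 over 8 genes of B and plasma cells, where no other array exceeded 7.05 and 5.25. Acinar transcripts were high on every array. Means over 8 acinar genes were 13.71, 14.67, 15.92 and 14.81 on pancreatectomy arrays 1 to 4. On sham arrays 1 to 4 they were 15.80, 14.85, 12.64 and 14.61. Macrophage and fibroblast markers lay above every sham array on pancreatectomy arrays 1 and 3 only, with means over 13 macrophage genes of 10.61, 8.61, 10.23 and 9.004 on pancreatectomy arrays 1 to 4, against 8.72 to 9.11 on sham arrays, and over 9 fibroblast genes of 12.24, 9.57, 11.59 and 9.62 on pancreatectomy arrays 1 to 4, against 9.13 to 9.90 on sham arrays. All 8 islet genes (Ins1, Ins2, Gcg, Sst, Ppy, Iapp, Chga and Pdx1) were measured in both groups, with means of 17.02 to 17.73 on pancreatectomy arrays and 17.15 to 18.14 on sham arrays. Sham array 3 was the dimmest, with 48.1% of probes well above background, against 59.0% to 71.4% on pancreatectomy arrays and 68.4% to 70.8% on the other sham arrays. Values are normalized log2 signals throughout, and because arrays measure whole islets, more cells of a type and more RNA per cell cannot be told apart. All arrays lie on 1 slide, where pancreatectomy arrays fill columns 3 and 4 and sham arrays columns 1 and 2, and the effects of column and operation cannot be told apart. The sample's description names another position again in place of that of sham array 4, which was placed in the sham group by the record of which file belongs to which sample, and values without it are among the alternatives.

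**Figure D1:**
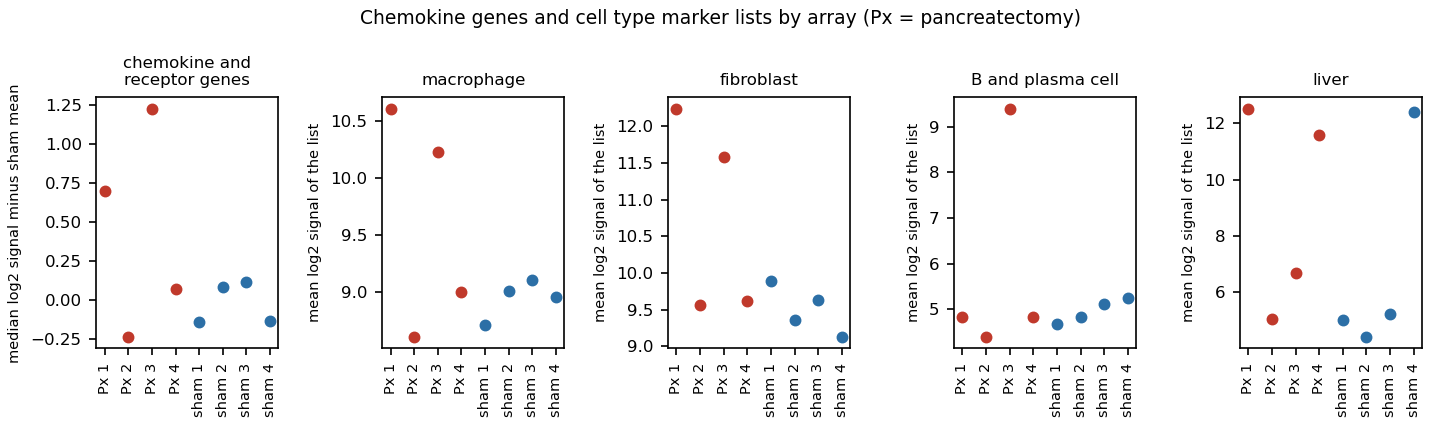
Each point is 1 array, pancreatectomy (Px, red) left of sham (blue). The first panel shows the median over the 37 measured chemokine and receptor genes of the log2 signal minus the sham mean, and the others the mean log2 signal of a marker list. The chemokine median was 0.70 and 1.23 on pancreatectomy arrays 1 and 3, where the macrophage and fibroblast means also lay above every sham array.

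The comparison asks which members of the chemokine system differ in islets after partial removal of the pancreas. Ccl2, Ccl6, Ccl8, Ccl9 and Cxcl10 lay above every sham array on pancreatectomy arrays 1 and 3, while Ccl3 and Ccl4 were lowest on array 3 within the pancreatectomy group. Cxcl1, a neutrophil attractant, had the highest change, 2.42 ± 1.18 on the log2 scale (pancreatectomy minus sham, SE, 4 arrays against 4), followed by Ccr6, Ccl6, Ccl8, Ccl2 and Ccl12. None of the 37 genes passed an adjusted p of 0.05 in limma, where 0.629% of all 30858 features passed, 0.544% higher and 0.0843% lower after pancreatectomy. The lowest adjusted p was 0.225, for Ccl24. At an unadjusted p under 0.05, 6 of the 37 were higher and 0 lower (Ccl12, Cxcr3, Ccl24, Ccl28, Ccl3 and Cxcr6), against 4.22% and 6.28% of all features.

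The change was above 0 for 30 of the 37 genes, 20 of 24 ligands and 10 of 13 receptors, against 45.1% of all features. It was at least 1 for 12 genes, 10 ligands and 2 receptors, where 2.97% of all features reached that size, and 0 members had -1 or less, against 0.612% of all features. The median change was 0.62 over the 37 genes, 0.65 over ligands and 0.58 over receptors, against -0.037 over all features. By array, the median of the 37 lay 0.70, -0.24, 1.23 and 0.072 from the sham mean on pancreatectomy arrays 1 to 4, against -0.14, 0.081, 0.12 and -0.13 on sham arrays 1 to 4. The arrays of the pancreatectomy group thus differed among themselves by more than the sham arrays did. Pancreatectomy array 3 gave the highest of the 8 values for 17 genes, array 1 for 9, array 2 for 4 and array 4 for 0, against 7.11%, 7%, 18.4% and 9.74% of all features. Without pancreatectomy arrays 1 and 3 the median was -0.12, and without sham array 4 and pancreatectomy arrays 1, 3 and 4, which carried liver, gut or B-cell transcripts, it was -0.27, with 0 genes past the threshold in each case. Without pancreatectomy array 3 alone it was 0.25.

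**Figure D2:**
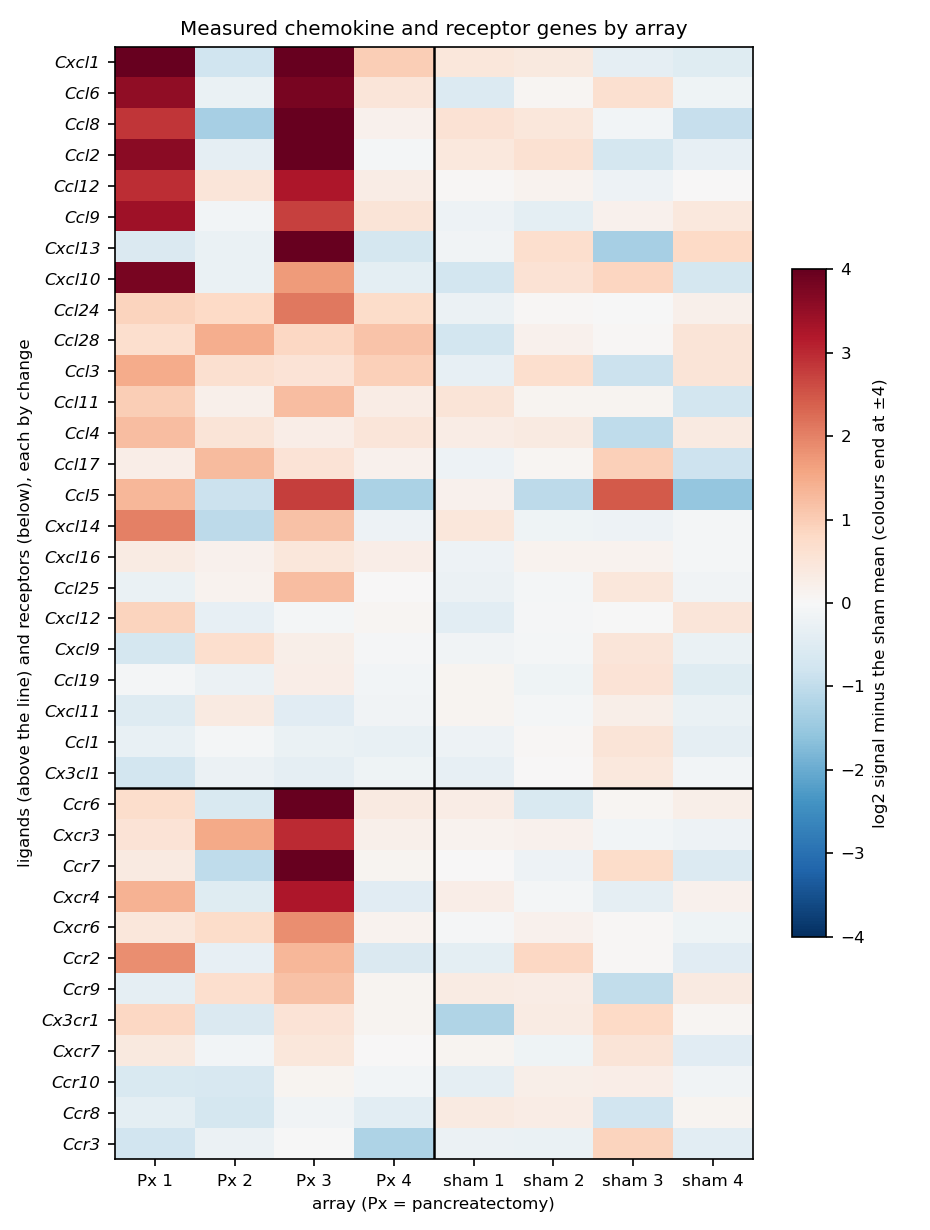
Rows are 36 of the 37 measured genes, 24 ligands above the line and 12 receptors below it, and columns the 8 arrays, with pancreatectomy (Px) arrays on the left. Colour is the log2 signal minus the mean of the 4 sham arrays. Red fields gather on pancreatectomy arrays 1 and 3, where 14 and 21 of all 37 genes lay at least 1 above the sham mean, against 3 and 1 on arrays 2 and 4. Of all features, 5.11%, 4.46%, 5.56% and 2.59% did so on pancreatectomy arrays 1 to 4.

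**Figure D3:**
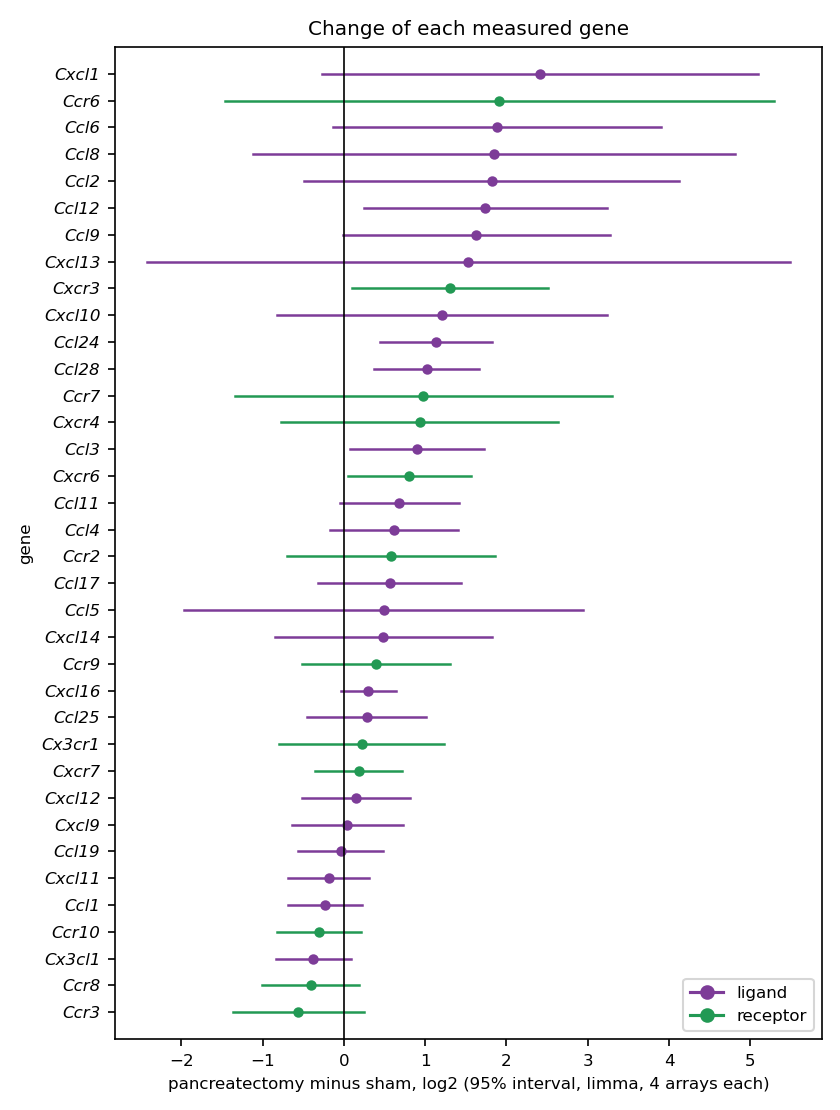
Points are the changes of 36 of the 37 measured genes, pancreatectomy minus sham on the log2 scale, and bars their 95% intervals from limma (4 arrays against 4). Changes run from 2.42 for Cxcl1 to -0.56 for Ccr3, and the intervals of Cxcl1, Ccr6, Ccl8 and Cxcl13 are among the widest.

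The regions 250 bases before the start of 4 ligand genes whose values were high together on pancreatectomy arrays 1 and 3 are shown, from RefSeq on GRCm38.p6, 5′ to 3′ on the gene's strand. They lie at chr5:90890995-90891244 (Cxcl1, plus strand), chr5:92348890-92349139 (Cxcl10, minus strand), chr11:82101595-82101844 (Ccl12, plus strand) and chr11:82114935-82115184 (Ccl8, plus strand). Capitals mark matches on either strand to the kappaB consensus, to the interferon regulatory factor element (GAAA, any 2 bases, GAAA) or to the AP-1 element TGAGTCA.
Cxcl1: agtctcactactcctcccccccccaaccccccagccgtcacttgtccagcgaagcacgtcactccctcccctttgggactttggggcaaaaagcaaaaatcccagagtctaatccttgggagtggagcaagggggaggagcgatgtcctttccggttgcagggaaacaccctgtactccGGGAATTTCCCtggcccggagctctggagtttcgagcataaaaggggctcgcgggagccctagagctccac
Cxcl10: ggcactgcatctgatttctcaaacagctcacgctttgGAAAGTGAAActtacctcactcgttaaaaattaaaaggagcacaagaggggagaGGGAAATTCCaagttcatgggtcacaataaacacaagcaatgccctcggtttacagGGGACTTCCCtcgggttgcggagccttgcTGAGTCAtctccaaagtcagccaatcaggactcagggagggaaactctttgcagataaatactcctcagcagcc
Ccl12: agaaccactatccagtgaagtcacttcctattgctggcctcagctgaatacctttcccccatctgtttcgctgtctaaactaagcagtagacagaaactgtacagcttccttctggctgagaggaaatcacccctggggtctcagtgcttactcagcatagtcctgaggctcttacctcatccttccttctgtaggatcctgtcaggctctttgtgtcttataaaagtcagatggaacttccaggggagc
Ccl8: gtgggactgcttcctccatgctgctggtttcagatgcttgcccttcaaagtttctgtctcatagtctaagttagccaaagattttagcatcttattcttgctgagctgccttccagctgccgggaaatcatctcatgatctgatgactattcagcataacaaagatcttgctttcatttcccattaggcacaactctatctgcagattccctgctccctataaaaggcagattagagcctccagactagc

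The Cxcl1 region holds 2 kappaB matches, GGGAATTTCC at 71 to 62 bases before the start and GGAATTTCCC at 70 to 61, which overlap. Cxcl10 holds the kappaB matches GGGAAATTCC at 159 to 150 bases and GGGACTTCCC at 103 to 94 bases before the start, the interferon element GAAAGTGAAA at 213 to 204 and TGAGTCA at 74 to 68. Ccl12 and Ccl8 hold no match to these letters. Among 40 such regions found for 38 of the 53 members, 20.0% held the kappaB consensus, 7.50% the interferon element and 7.50% the AP-1 element, against 3.90%, 2.98% and 4.46% of 32851 regions of all genes. Besides Cxcl1 and Cxcl10, the kappaB letters were found before Cxcl2, Cxcl3, Ccl9, Ccl20, Ccr3 and Ccr6.

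Ccl2, Ccl7 and Ccl12 attract monocytes, mainly through Ccr2, and lie in a cluster on chromosome 11 with Ccl8, Ccl11 and Ccl1. Ccl2, the principal ligand of Ccr2, had 9.05, 5.08, 9.54 and 5.35 on pancreatectomy arrays 1 to 4, against 5.85, 6.05, 4.74 and 5.11 on sham arrays 1 to 4. Pancreatectomy arrays 1 and 3 lay well above every sham array, and arrays 2 and 4 lay within the sham range. Its change was 1.82 ± 1.02, or 3.52-fold (limma adjusted p = 0.575), -0.23 without pancreatectomy arrays 1 and 3, and its probe lies on chromosome 11 (probe at 81850650 to 81850709), on mm9 as all probe positions here. Ccl8 had 7.29, 3.09, 10.08 and 4.60 on pancreatectomy arrays 1 to 4, against 4.99, 4.85, 4.32 and 3.49 on sham arrays 1 to 4. Array 3 was highest and array 2 was below every sham array, though not well above background, and the change was 1.85 ± 1.31 (adjusted p = 0.652). Ccl12, a mouse ligand of Ccr2, had 6.58, 4.09, 6.85 and 3.93 on pancreatectomy arrays 1 to 4, against 3.66, 3.76, 3.42 and 3.65 on sham arrays 1 to 4. All 4 pancreatectomy arrays lay above all sham arrays, by 0.17 for the nearest pair, with pancreatectomy array 2 and sham array 3 not well above background. The change of Ccl12 was 1.74 ± 0.66, or 3.34-fold (adjusted p = 0.412), with 0.39 without pancreatectomy arrays 1 and 3 and 0.65 with normexp background correction. Ccl7 was well above background on pancreatectomy arrays 1 and 3 alone, so it was not tested, with 7.99, 2.19, 8.32 and 1.49 on pancreatectomy arrays 1 to 4, against 0.75, 1.47, 3.02 and 0.74 on sham arrays 1 to 4. With its sham signal raised to the lowest level well above background, the ratio of pancreatectomy to sham was 3.00 for Ccl7. This ratio rests on pancreatectomy arrays 1 and 3 and is not a strict bound. It came to 1.39 without pancreatectomy array 3 and was also lower without array 1.

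Ccl6 and Ccl9 are ligands of Ccr1 made by myeloid cells, and they neighbour each other on chromosome 11. Ccl6 had 10.57, 6.77, 10.81 and 7.51 on pancreatectomy arrays 1 to 4, against 6.48, 7.11, 7.69 and 6.85 on sham arrays 1 to 4, and Ccl9 had 9.75, 6.25, 9.09 and 6.88 on pancreatectomy arrays 1 to 4, against 6.16, 5.97, 6.54 and 6.80 on sham arrays 1 to 4. Their probes lie on chromosome 11 (probe at 83401997 to 83402056) and chromosome 11 (probe at 83388223 to 83388282), and those of Ccl8 and Ccl12 on chromosome 11 (probe at 81930108 to 81930167) and chromosome 11 (probe at 81916764 to 81916823). Both genes showed the order seen for Ccl2, with pancreatectomy arrays 1 and 3 above every sham array and arrays 2 and 4 among or close to the sham values. The changes were 1.89 ± 0.89 for Ccl6 (limma adjusted p = 0.507) and 1.63 ± 0.72 for Ccl9 (adjusted p = 0.48), and 0.11 and 0.20 without pancreatectomy arrays 1 and 3. Ccr2, the receptor of Ccl2, Ccl7 and Ccl12, had 7.18, 5.01, 6.68 and 4.77 on pancreatectomy arrays, against 4.94, 6.16, 5.36 and 4.87 on sham arrays. Its change was 0.58 ± 0.56. It lay above every sham array on pancreatectomy arrays 1 and 3 alone, and it did not pass. Ccr1 was well above background on pancreatectomy array 1 alone.

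Most macrophage and fibroblast markers were high on the same arrays as these ligands, with 11 of 13 macrophage and 8 of 9 fibroblast genes above every sham array on both pancreatectomy arrays 1 and 3. Of all features, 13.9% lay above every sham array on pancreatectomy array 1 and 15% on array 3. Of 13 measured macrophage genes, 11 had a change above 0 and 1 passed, Folr2 at 1.14 ± 0.20 (limma adjusted p = 0.049), while no array measured Cd163 well above background. The call of Folr2 lay close to the threshold of 0.05 and was not followed in the alternatives. Folr2, a folate receptor of tissue macrophages, had 9.03, 8.69, 8.60 and 8.41 on pancreatectomy arrays, against 7.56, 7.67, 7.14 and 7.81 on sham arrays, so its groups did not overlap and its pancreatectomy arrays lay close together. Lyz2, a myeloid lysozyme, had 11.28, 5.81, 10.71 and 6.41 on pancreatectomy arrays, against 6.56, 6.79, 6.93 and 7.004 on sham arrays, and Col1a1, a fibroblast collagen, had 15.06, 10.04, 13.57 and 10.02 on pancreatectomy arrays, against 10.65, 9.75, 9.89 and 9.20 on sham arrays. Lyz2 and Col1a1 were high on pancreatectomy arrays 1 and 3. Of the others, C1qa had 11.75, 10.51, 11.80 and 11.23 on pancreatectomy arrays, against 11.24, 11.66, 11.91 and 11.72 on sham arrays, and Itgam 13.04, 13.97, 13.21 and 13.41 on pancreatectomy arrays, against 13.76, 13.81, 14.50 and 13.43 on sham arrays, so Itgam was lowest on pancreatectomy arrays 1 and 3. Thy1, a fibroblast gene, had 11.67 to 11.72 on all 4 pancreatectomy arrays, against 10.74 to 11.70 on sham arrays. All 9 fibroblast genes were positive, with a median of 1.32, and the median was 0.68 for macrophage genes. Changes were above 0 for 8 of 10 endothelial, 2 of 5 dendritic cell, 7 of 8 acinar and 4 of 6 duct genes, with medians of 0.14, -0.079, 0.25 and 0.61, and 0 of them passed. Their part in the chemokine values was not tested.

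**Figure D4:**
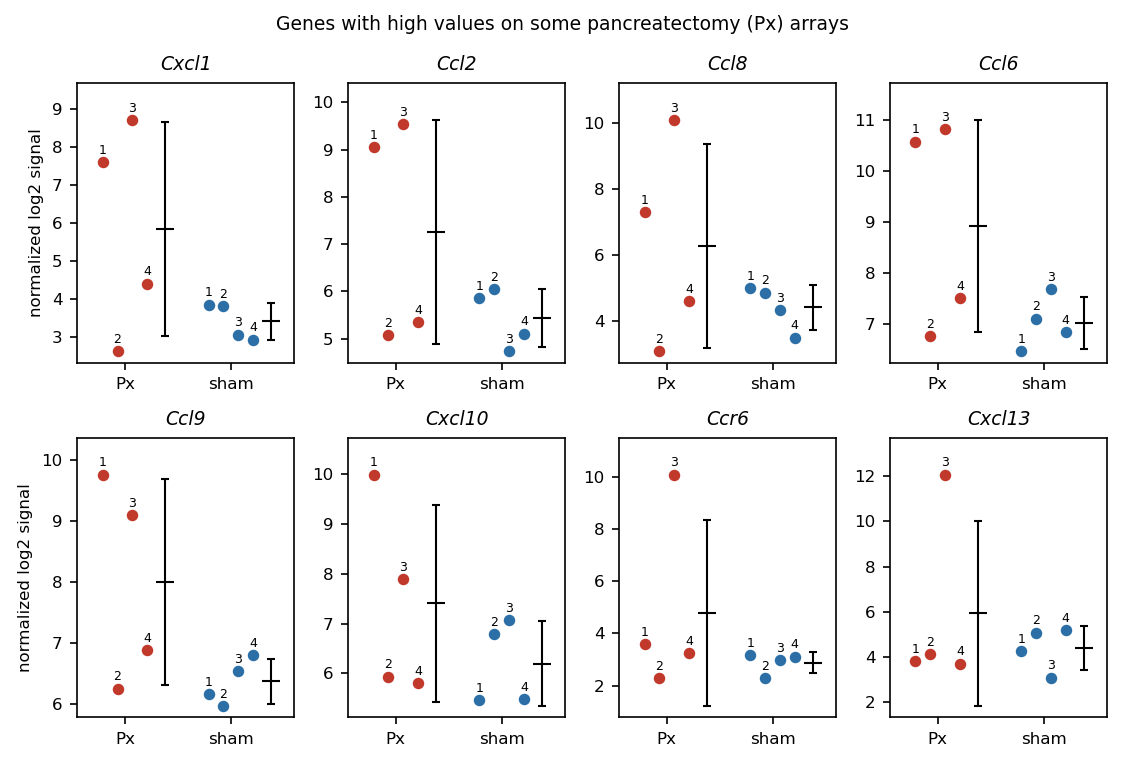
Points are the 8 arrays, numbered within their group, with pancreatectomy (Px, red) left of sham (blue), and black bars show the mean ± SD of 4 arrays on the log2 scale. Cxcl1, Ccl2, Ccl8, Ccl6, Ccl9 and Cxcl10 were high on pancreatectomy arrays 1 and 3, while Ccr6 and Cxcl13 were high on array 3, at 10.08 and 12.07.

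Cxcl1, Cxcl2, Cxcl3 and Cxcl5 attract neutrophils through Cxcr2, and all 4 lie on chromosome 5. Cxcl1 had 7.60, 2.63, 8.70 and 4.40 on pancreatectomy arrays 1 to 4, against 3.85, 3.80, 3.06 and 2.93 on sham arrays 1 to 4, with pancreatectomy array 2 and sham array 3 not well above background. Its probe lies on chromosome 5 (probe at 91321845 to 91321904). Pancreatectomy arrays 1, 3 and 4 lay above every sham array and array 2 below every sham array, so the groups overlapped. The change of Cxcl1, whose region with the kappaB letters is printed above, was 2.42 ± 1.18, or 5.35-fold, with a 95% interval of -0.26 to 5.10 (limma adjusted p = 0.519). It was 1.28 with normexp, 0.10 without pancreatectomy arrays 1 and 3, and -0.95 on pancreatectomy array 2 against sham arrays 1 to 3. Cxcl2 was well above background on pancreatectomy arrays 1 and 3 and on sham array 2, and Cxcl5 on pancreatectomy arrays 1 and 3 and on sham array 3. Cxcl5 had 5.79, 2.31, 7.63 and 1.52 on pancreatectomy arrays, against 0.90, 0.91, 5.81 and 0.72 on sham arrays, and Cxcl3 was measured on pancreatectomy array 1 alone. Too few arrays measured these 3 genes for a test, and in the pancreatectomy group they were measured only on array 1 or 3, although sham array 3 exceeded pancreatectomy array 1 in Cxcl5. Cxcr2, their receptor, was well above background on pancreatectomy arrays 1 and 3 and sham array 4, and Cxcr1 on 1 sham array. Over 8 neutrophil genes the mean was 8.26, 7.03, 8.16 and 7.36 on pancreatectomy arrays 1 to 4, against 6.67 to 7.29 on sham arrays, and S100a8, a calcium-binding protein of neutrophils, had 7.97, 4.41, 7.16 and 5.16 on pancreatectomy arrays, against 2.34, 5.18, 3.09 and 3.80 on sham arrays. S100a8 was thus highest on pancreatectomy arrays 1 and 3, and 4 of the 8 neutrophil genes lay above every sham array on both. Of all features, 13.9% did so on array 1 and 15% on array 3. Elane and Mpo, granule proteins of neutrophils, had changes of -0.47 ± 0.42 and -0.096 ± 0.35, and 6 of the 8 genes had a change above 0. S100a8 and S100a9, another gene of the list, had 2.57 ± 0.86 and 2.16 ± 0.77 (limma adjusted p = 0.35 and 0.385). Mpo was well above background on 2 arrays of each group, and S100a8 on 2 sham arrays. On sham arrays Elane had 11.83 to 14.10 and Mpo 2.81 to 4.43, and whether these signals come from neutrophils was not tested.

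Cxcl9, Cxcl10 and Cxcl11 are induced by interferon and attract activated T cells through Cxcr3. Cxcl10 had 9.99, 5.93, 7.89 and 5.80 on pancreatectomy arrays 1 to 4, against 5.45, 6.78, 7.07 and 5.48 on sham arrays 1 to 4. Pancreatectomy array 1 was highest and array 3 next, while arrays 2 and 4 lay within the sham range. Its change was 1.21 ± 0.89 (limma adjusted p = 0.668), and it was -0.33 without pancreatectomy arrays 1 and 3. The probe that represents Cxcl9 was nearly level between groups, with a change of 0.043 ± 0.30 and pancreatectomy arrays from 5.91 to 7.28, against 6.33 to 7.10 on sham arrays. A second Cxcl9 probe, well above background on pancreatectomy arrays 1 and 3 alone, gave 4.47, 2.09, 6.28 and 1.73 on pancreatectomy arrays, against 0.66, 2.42, 3.03 and 2.28 on sham arrays. Its ratio to the background level, formed as for Ccl7, fell below 1 without pancreatectomy array 3 (0.636) or without array 1 (0.966). Cxcl11, which carries a frameshift in the C57BL/6 strain, had changes of -0.19 ± 0.22 by its brighter probe and 0.22 by its other probe, and overlapping groups in the brighter probe. The brighter probe had 16.62 to 17.49 on pancreatectomy arrays, against 16.88 to 17.38 on sham arrays. The other probe had 10.92 to 11.55 on pancreatectomy arrays, against 10.18 to 11.37 on sham arrays. Whether either probe measures Cxcl11 alone was not tested. Cxcr3, the receptor of Cxcl9, Cxcl10 and Cxcl11, had 4.57, 5.54, 7.02 and 4.24 on pancreatectomy arrays 1 to 4, against 4.17, 4.20, 3.94 and 3.83 on sham arrays 1 to 4. All pancreatectomy arrays lay above all sham arrays, although pancreatectomy array 4 exceeded the highest sham array by only 0.041 and sham array 3 was not well above background. The change of Cxcr3 was 1.31 ± 0.53 (adjusted p = 0.441), with 0.75 without pancreatectomy array 3 and 0.46 with normexp. Over 7 T-cell and NK-cell genes the mean was 7.62, 7.85, 9.15 and 8.04 on pancreatectomy arrays 1 to 4, against 7.51 to 8.29 on sham arrays. On pancreatectomy array 3, 3 of the 7 genes lay above every sham array, Cd2 at 9.80, Lck at 10.18 and Nkg7 at 10.59. That held for 15% of all features on this array. Cd3e and Cd4, defining genes of T cells, had changes of -0.20 ± 0.21 and -0.39 ± 0.21. On sham arrays Cd3e had 13.26 to 14.16 and Cd4 12.15 to 12.78, where Cd8a had 3.02 to 4.14 and Nkg7 9.87 to 10.31. Whether the Cd3e and Cd4 signals come from T cells was not tested. Ncr1, an NK-cell marker, was measured well above background by 0 of 8 arrays.

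Cxcl13, Ccr6 and Ccr7, genes of lymphoid tissue and lymphocytes, stood out on pancreatectomy array 3, while Ccl19, a lymphoid ligand of Ccr7, had 8.14 there, against 8.41 on sham array 3. Cxcl13, which draws B cells into follicles, had 3.80, 4.13, 12.07 and 3.70 on pancreatectomy arrays 1 to 4, against 4.25, 5.06, 3.07 and 5.18 on sham arrays 1 to 4. Ccr6, a receptor of B cells and of some T cells and dendritic cells, had 3.58, 2.27, 10.08 and 3.23 on pancreatectomy arrays 1 to 4, against 3.18, 2.27, 2.96 and 3.11 on sham arrays 1 to 4. Ccr7, which guides T cells and dendritic cells to lymph nodes, had 4.92, 3.52, 9.01 and 4.64 on pancreatectomy arrays 1 to 4, against 4.55, 4.35, 5.28 and 3.9997 on sham arrays 1 to 4. Ccr6 was well above background on pancreatectomy arrays 1 and 3 and on sham arrays 1 and 4 alone. Cxcl13 and Ccr7 were not well above background on pancreatectomy array 2 and sham array 3. In each case pancreatectomy array 3 lay more than 3 units above every other array, and the other pancreatectomy arrays lay among or near the sham values. The changes were 1.53 ± 1.74 for Cxcl13, 1.91 ± 1.49 for Ccr6 and 0.98 ± 1.02 for Ccr7 (limma adjusted p = 0.786, 0.682 and 0.768), and -0.52, 0.15 and -0.19 without that array. Cxcr5, the Cxcl13 receptor of B cells, was well above background on that array alone, with 1.04, 1.92, 9.13 and 1.25 on pancreatectomy arrays, against 0.59, 0.63, 2.93 and 0.42 on sham arrays. Cxcr4, the receptor of Cxcl12 on most leukocytes, had 6.49, 4.63, 8.34 and 4.65 on pancreatectomy arrays, against 5.35, 5.02, 4.75 and 5.27 on sham arrays, with arrays 1 and 3 above every sham array. On pancreatectomy array 3, 7.11% of all features had their highest value, and so did 7 of 8 genes of B and plasma cells. The exception was Pax5, with 3.98 there and up to 4.47 on sham arrays. Among the B-cell genes Cd79b, a B-cell receptor subunit, had 12.85, against at most 6.08 on any other array. Ccl25, which draws cells with Ccr9 to the small intestine, was 8.93 on pancreatectomy array 3, against 7.43 to 7.84 on the other pancreatectomy arrays and 7.46 to 8.16 on sham arrays, and its other probe gave a change of -0.051. Ccr9 itself had 5.16 there, the highest of its 8 values, and gut markers were high on that array too. The part of the B-cell and gut markers in these values was not tested.

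For 5 of the 37 genes the groups did not overlap, all 5 higher after pancreatectomy, where 8.28% of all features did not overlap, 2.99% higher and 5.3% lower. They are Ccl12 and Cxcr3, given above, and Ccl24, Ccl28 and Cxcl16. Ccl24, an eosinophil attractant of macrophages that acts on Ccr3, had 4.75, 4.65, 5.96 and 4.59 on pancreatectomy arrays 1 to 4, against 3.61, 3.91, 3.85 and 4.06 on sham arrays 1 to 4, with sham array 3 not well above background. Its lowest pancreatectomy array lay 0.54 above its highest sham array, and its change was 1.13 ± 0.30, or 2.19-fold (limma adjusted p = 0.225). The change was 0.77 without pancreatectomy arrays 1 and 3, 0.81 to 1.26 without any 1 array and 0.32 with normexp, and the call passed with array weights (1.28, limma adjusted p = 0.0495), against adjusted p of 0.145 to 1 in the other alternatives. Ccl28, an epithelial chemokine of mucosal surfaces that acts on Ccr10 and Ccr3, had 8.68, 9.45, 8.83 and 9.15 on pancreatectomy arrays 1 to 4, against 7.28, 8.18, 8.06 and 8.52 on sham arrays 1 to 4. Here array 2 was highest and array 4 next, so that Ccl28 did not share the order of Ccl2. Its change was 1.02 ± 0.28, or 2.03-fold (adjusted p = 0.251), with 1.29 without pancreatectomy arrays 1 and 3 and 1.61 on pancreatectomy array 2 against sham arrays 1 to 3. Cxcl16, a membrane-bound ligand and scavenger receptor, had 8.66, 8.48, 8.77 and 8.58 on pancreatectomy arrays 1 to 4, against 8.11, 8.46, 8.47 and 8.25 on sham arrays 1 to 4, a difference of 0.30 ± 0.15 (adjusted p = 0.519), and the nearest pair of arrays lay 0.012 apart. Its receptor Cxcr6, found on T and NKT cells, had 4.76, 5.04, 6.15 and 4.44 on pancreatectomy arrays, against 4.24, 4.47, 4.34 and 4.12 on sham arrays. The probes lie on chromosome 5 (probe at 136046667 to 136046726) for Ccl24, on chromosome 11 (probe at 70267780 to 70267839) for Cxcl16 and on chromosome X (probe at 98926920 to 98926979) for Cxcr3. Cxcr6 overlapped between groups in 1 array, with a change of 0.80 ± 0.33 (adjusted p = 0.454) and 0.62 by its other probe, and it was 0.45 without pancreatectomy array 3 and 0.35 with normexp.

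**Figure D5:**
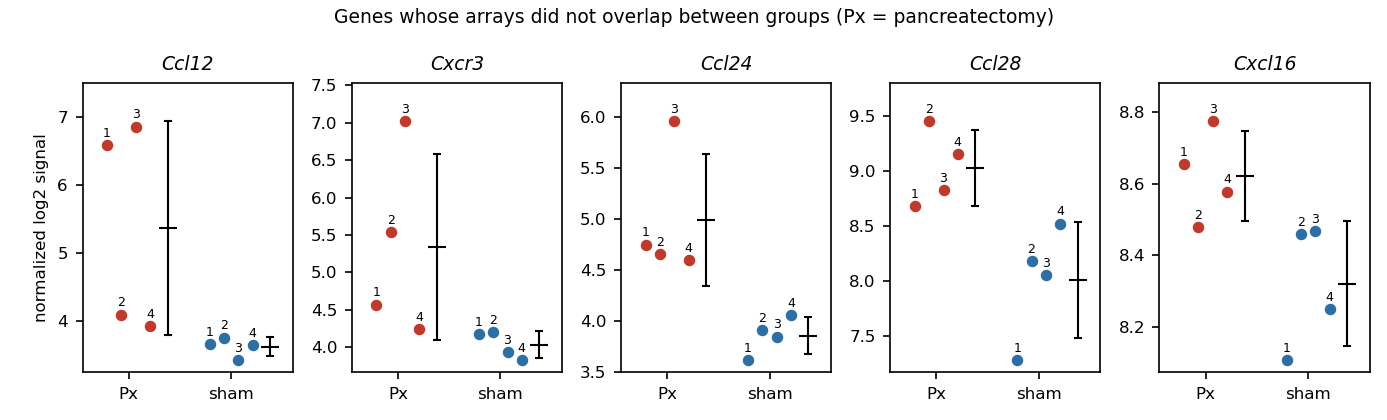
Points are the 8 arrays, numbered within their group, with pancreatectomy (Px, red) left of sham (blue), and black bars show the mean ± SD of 4 arrays on the log2 scale. The groups do not overlap in any of the 5 genes, and Ccl28 was highest on pancreatectomy array 2, at 9.45, while the other 4 were highest on array 3.

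Ccl3 and Ccl4, inflammatory ligands of macrophages and T cells, lie next to each other on chromosome 11. Ccl3 had 9.17, 8.33, 8.23 and 8.63 on pancreatectomy arrays 1 to 4, against 7.36, 8.35, 6.84 and 8.202 on sham arrays 1 to 4, a change of 0.90 ± 0.36, or 1.87-fold (limma adjusted p = 0.437). Its 4 pancreatectomy arrays lay in a narrow range that overlapped the upper sham values, and the change was 0.79 without pancreatectomy arrays 1 and 3. Ccl4 had 7.63 to 8.60 on pancreatectomy arrays, against 6.37 on sham array 3 and 7.67 to 7.74 on the other sham arrays, a change of 0.62 ± 0.35. Ccl5, a ligand made by T cells, had 8.68, 6.48, 10.11 and 6.09 on pancreatectomy arrays, against 7.53, 6.30, 9.80 and 5.79 on sham arrays. It was high on pancreatectomy array 3 and on sham array 3, and its change was 0.49 ± 1.08. Ccl11, an eosinophil attractant of stromal cells, had 7.53, 6.74, 7.76 and 6.84 on pancreatectomy arrays, against 7.04, 6.65, 6.65 and 5.80 on sham arrays, a change of 0.68 ± 0.32 (adjusted p = 0.508). Ccl17, a ligand of Ccr4, had a change of 0.56 ± 0.39, with 0.059 with normexp and 0.29 to 0.89 without any 1 array, and Cxcl14, a chemokine of epithelial and stromal cells, 0.49 ± 0.59, with 8.56 and 7.72 on pancreatectomy arrays 1 and 3, 5.52 and 6.35 on arrays 2 and 4, and 6.36 to 6.999 on sham arrays. Cxcl14 thus lay above every sham array on pancreatectomy arrays 1 and 3, like Ccl2. Unlike Ccl2 it lay below every sham array on arrays 2 and 4, narrowly on array 4. None of these genes passed.

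For the homeostatic ligands and their receptors the groups overlapped. Cxcl12, a homeostatic ligand of stromal and endothelial cells, had 8.96 to 10.18 on pancreatectomy arrays, against 8.85 to 9.76 on sham arrays, a change of 0.14 ± 0.29, with 0.57 by its other probe. Cxcr7, now named Ackr3, a scavenging receptor of Cxcl12, had 7.42 to 7.99 on pancreatectomy arrays, against 7.11 to 8.05 on sham arrays, a change of 0.18 ± 0.23. Cx3cl1, a membrane-bound ligand, had 9.88, 10.36, 10.23 and 10.43 on pancreatectomy arrays, against 10.26, 10.62, 11.02 and 10.50 on sham arrays, a change of -0.38 ± 0.20 (limma adjusted p = 0.563), and its receptor Cx3cr1, a gene of resident macrophages and monocytes, had 0.22 ± 0.45. Ccl19, a ligand of Ccr7 with near-identical copies on chromosome 4 that these probes may not tell apart, had -0.042 ± 0.23 and changes from -0.042 to 0.036 over its 3 probes. The 95% intervals were -0.52 to 0.81 for Cxcl12, -0.35 to 0.71 for Cxcr7, -0.84 to 0.083 for Cx3cl1 and -0.57 to 0.49 for Ccl19, so differences of either sign within these bounds remain possible. The lowest changes were -0.56 ± 0.36 for Ccr3, the eosinophil receptor, -0.41 ± 0.26 for Ccr8, a receptor of Ccl1, Cx3cl1 with the value above, and -0.31 ± 0.23 for Ccr10, a receptor of Ccl28. With normexp these were -0.096 for Ccr3 and -0.085 for Ccr10, and without any 1 array Ccr3 had -0.75 to -0.26. Ccr3 had 3.91, 4.45, 4.69 and 3.47 on pancreatectomy arrays, against 4.45, 4.44, 5.59 and 4.28 on sham arrays, and was not well above background on pancreatectomy arrays 2 and 4. Ccr8 had 6.39, 6.06, 6.64 and 6.36 on pancreatectomy arrays, against 7.13, 7.06, 6.02 and 6.89 on sham arrays, and Ccr10 had 4.11, 4.05, 4.82 and 4.59 on pancreatectomy arrays, against 4.35, 4.93, 4.95 and 4.58 on sham arrays. In all 4 genes the groups overlapped, and Ccl1, a T-cell ligand of Ccr8, had -0.23 ± 0.20.

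The 16 members that did not reach the 4 arrays needed were Ccl7, Ccl20, Ccl22, Ccl26, Ccr1, Ccr4, Cxcl2, Cxcl3, Cxcl5, Cxcl15, Cxcl17, Cxcr1, Cxcr2, Cxcr5, Xcl1 and Xcr1. Of these, Ccl20, Ccl22, Ccl26, Ccr4, Cxcl15 and Xcr1 were not well above background on any array. The other 10 were measured on 1 to 3 arrays, and 9 of them on pancreatectomy array 1 or 3, the exception being Cxcr1. Of all probes, 71.4% and 67.6% were well above background on pancreatectomy arrays 1 and 3, against 59.0% and 62.8% on arrays 2 and 4. The share was 48.1% to 70.8% on sham arrays. The same count was not made over all features, so it cannot be read as a trait of these genes. Xcl1, which attracts cross-presenting dendritic cells, was measured on pancreatectomy array 3 alone, and so was Cxcl17, a mucosal chemokine. A gene that is not well above background may still be expressed below what these arrays can measure.

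Relatives of the members, receptor signalling genes and cytokines that induce chemokines were listed separately. Limma passed 0 of 7 measured relatives (Ackr3, which is the member Cxcr7, was left out), 0 of 22 signalling genes and 0 of 13 inducers. At an unadjusted p under 0.05, Cklf and Pf4 were higher and Arrb2, Gnb1 and Grk5 lower, 11.9% of these 42 genes, against 10.5% of all features. Pf4, the platelet chemokine that is also made by macrophages, had 12.46, 6.10, 11.31 and 6.97 on pancreatectomy arrays 1 to 4, against 6.13, 6.40, 6.01 and 5.84 on sham arrays 1 to 4. It was high on pancreatectomy arrays 1 and 3 like Ccl2, and its change of 3.12 ± 1.31 (adjusted p = 0.457) exceeded that of every tested member. Ackr2, a decoy receptor of inflammatory CC chemokines, had 0.63 ± 0.29. Among signalling genes, Rac2, a leukocyte GTPase, had 8.38, 6.73, 11.17 and 7.04 on pancreatectomy arrays, against 6.84, 7.18, 6.53 and 6.92 on sham arrays, a change of 1.46 ± 0.85, and Pik3cg, a leukocyte PI3-kinase, 1.01 ± 0.55. The medians were 0.35 for the 7 relatives, -0.065 for signalling genes and -0.013 for inducers, against -0.037 over all features. Tnf and Il1b, cytokines that induce chemokines, had changes of 0.75 ± 0.52 and 0.56 ± 0.32. Tnf had 5.50, 3.04, 4.97 and 3.34 on pancreatectomy arrays, against 3.26, 3.57, 3.37 and 3.66 on sham arrays, with pancreatectomy arrays 1 and 3 again highest. It was well above background on 2 pancreatectomy and 3 sham arrays. Csf2, Csf3, Ifng and Il13 were not well above background on any array.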

How the data were processed

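Expression was measured with single-colour Cy3 arrays on islet RNA, 4 arrays after pancreatectomy and 4 after sham operation. The deposited scanner files hold a linear intensity per spot. Per the file headers the software was Feature Extraction 10.7.3.1, and the submitters' processing notes give version 9.1. The authors' deposited table gives 1 average per group as raw intensity and as a log2 value that, per the file headers, was shifted to the 75th percentile in GeneSpring GX 12.5. It supplied gene names and a check of differences.

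Control spots and spots with outlier flags were left out, and no spot was saturated. The processed signal was taken to log2, the 75th percentile of its array was subtracted and the mean percentile over arrays was restored, and replicate spots were averaged. Probes entered the test if well above background on at least 4 of 8 arrays and with 3 values in each group (37485 of 55681), and a gene is its brightest kept probe. A gene that passes this filter had to be bright somewhere. Symbols were updated by Entrez ID with a GRCm38 table (30994 of 33325 probes with a symbol matched), which left 30858 features. Of these, 18638 have a symbol, and each of the others is a single probe without one. Shares over all features include both kinds. Probe positions are on mm9, per the file headers, and exon and UTR annotation was not used here. Tests used limma 3.58.1 (R 4.3.3), with its moderated linear model for the groups, Benjamini-Hochberg adjustment over all features and a threshold of 0.05. Changes are pancreatectomy minus sham with their standard error (SE). The fit was tested on simulated data. The number of arrays limits precision, and the median SE was 0.22 over all features and 0.39 over the 37 genes. The normexp alternative used the median spot signal and an offset of 50, since the files hold no mean spot signal. The ratio to the background level sets the mean of the 4 pancreatectomy arrays against the mean, over sham arrays, of the higher of the probe's signal and the lowest signal well above background. It is not a strict bound, since a probe can exceed that lowest signal without being well above background itself.

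Values on every array are given for genes past the threshold, genes whose groups do not overlap, the 6 highest changes, the 4 lowest changes and the 3 widest ranges over pancreatectomy arrays. Other genes named with values were chosen after their values were seen. Among the measured receptors, 1 enters the counts and medians but is not reported singly here. The members, lists and this rule were chosen with earlier results of these data known. Alternatives covered scaling, background, filter, probes, slide row, array weights, an intensity trend and left-out arrays.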

Additional observations from a re-analysis of the deposited data

Results flagged for a closer look

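In each group of 4 arrays, the gap between the highest or lowest array and its neighbour was divided by the range of the group. Of 74 groups, 6 exceeded Dixon's critical ratio, where chance gives about 1 in 20. On pancreatectomy array 3, Cxcl13 (12.07, ratio 0.949), Ccl24 (5.96, ratio 0.887) and Ccr6 (10.08, ratio 0.833) lay far above the other pancreatectomy arrays. On sham array 3, the dimmest array, Ccl4 (6.37, ratio 0.945) and Ccr9 (3.01, ratio 0.958) lay far below the other sham arrays, and Ccr3 (5.59, ratio 0.869) far above them. Ccr9 was not well above background on sham array 3, nor Cxcl13 on pancreatectomy array 2, nor Ccr6 on pancreatectomy arrays 2 and 4. Those ratios thus rest in part on signals that were not well above background.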

How the results depend on the processing

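No paired analysis was possible because the labels give the arrays slide positions and no replicate numbers that the groups share. Over 24 alternatives and 36 genes, 795 of 856 changes kept their sign and their side of the threshold, 60 turned sign and 1 passed. This count does not measure robustness, as some alternatives could hardly alter a change. The filters, every probe on its own, the slide row block and the intensity trend leave the change of a tested gene as it was. No scaling shifts all changes alike, and differences in the authors' deposited table follow the main ones (slope 1, r = 1). The 0 chemokine and receptor genes past the threshold, with 6 at an unadjusted p under 0.05, became 1 (Ccl24) with array weights, where 2 of the other network genes passed too, 1 higher and 1 lower. Both counts stayed at 0 in the other alternatives, among them within slide rows 1 and 2 and without any 1 array. The median of the members was 0.38 with normexp, 0.37 and 0.62 within slide rows 1 and 2, 0.25 to 0.89 without any 1 array, -0.12 without pancreatectomy arrays 1 and 3 (chosen after seeing the data) and -0.27 without the 4 arrays with liver, gut or B-cell transcripts, where 1 pancreatectomy array stood against 3 sham arrays and was assumed to vary like them. The 194 features past the threshold (168 higher, 26 lower) became 18 (18 and 0) with no scaling, 60 with normexp, 72 with no filter, 122 with slide row blocked, 0 and 0 within slide rows 1 and 2 (2020 and 896 at an unadjusted p under 0.05), 1021 (488 and 533) with array weights, 59 to 184 without any 1 array (59 without sham array 2, 62 without pancreatectomy array 4, 91 without sham array 1, 95 without sham array 4 and 129 without pancreatectomy array 1), 15 without pancreatectomy arrays 1 and 3 and 0 without the 4 arrays (1648 at an unadjusted p under 0.05). The causes were not tested. Changes that turned sign were as follows. Without the 4 arrays they were Cxcr7 (-0.27), Ccl11 (-0.04076), Ccl2 (-0.47), Ccl5 (-1.39), Ccl6 (-0.32), Ccl8 (-1.64), Ccr2 (-0.48), Ccr6 (-0.53), Ccr7 (-1.21), Cx3cr1 (-0.56), Cxcl1 (-0.95), Cxcl10 (-0.50), Cxcl11 (0.26), Cxcl12 (-0.16), Cxcl13 (-0.0001535), Cxcl14 (-1.06) and Cxcr4 (-0.42). Without pancreatectomy arrays 1 and 3 they were Cxcr7 (-0.0609), Ccl2 (-0.23), Ccl5 (-1.07), Ccl8 (-0.57), Ccr2 (-0.44), Ccr6 (-0.13), Ccr7 (-0.47), Cx3cr1 (-0.25), Cxcl10 (-0.33), Cxcl11 (0.11), Cxcl12 (-0.12), Cxcl13 (-0.48), Cxcl14 (-0.62) and Cxcr4 (-0.46). With median scaling it was Cxcl9 (-1.071e-05). With quantile scaling it was Cxcl9 (-0.01016). With normexp it was Ccl19 (0.09224). As the mean of probes they were Ccl19 (0.00316) and Cxcl11 (0.01552). Within slide row 1 they were Ccr7 (-0.23), Ccr9 (-0.16) and Cxcl13 (-0.69). Within slide row 2 they were Ccl19 (0.05028), Ccr8 (0.04688), Cx3cr1 (-0.12), Cxcl12 (-0.24) and Cxcl9 (-0.01659). With array weights it was Ccl19 (0.23). Without any 1 array, the ranges that held both signs were -0.21 to 0.14 for Ccl19, -0.03461 to 0.47 for Ccl25, -0.27 to 1.30 for Ccl5, -0.19 to 1.64 for Ccr7, -0.18 to 0.49 for Cx3cr1, -0.11 to 0.31 for Cxcl12, -0.52 to 2.27 for Cxcl13, -0.02319 to 0.99 for Cxcl14 and -0.17 to 0.29 for Cxcl9.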
